A study of Mus musculus with 12 samples.

Results

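Genes of cholesterol and fatty acid synthesis were examined in RNAseq data of differentiating mouse adherent neural stem (ANS) cells. The set holds 30 genes, taken by symbol from a fixed list, of 22609 genes in the count tables. It comprises the sterol regulators Srebf1, Srebf2 and Insig1, 7 enzymes of the mevalonate steps, 8 of the squalene and sterol steps, 3 of fatty acid synthesis, 7 of desaturation, elongation and activation, and the sterol transport genes Stard4 and Abca1. Hmgcs1, the synthase that feeds the mevalonate pathway, was listed at 0 in all 12 libraries. The other 29 genes had counts, passed the filter on low values and were tested in every comparison.

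ANS cells are neural stem cells cultured as a monolayer, here derived from mouse embryos at E14.5. At T0 (3 libraries) they proliferated in growth medium, that is Euromed-N with 1% N2, 20 ng/ml FGF2 and 20 ng/ml EGF. At T1 (3 libraries) they had spent 2 days in medium D1, with 0.5% N2, 1% B27, 10 ng/ml FGF and 2 ng/ml EGF. At T2 (4 libraries) and T3 (2 libraries) they had spent 2 and 10 days in medium B, a mix of DMEM/F12 and Neurobasal with 0.5% N2, 1% B27, 10 ng/ml FGF2 and 20 ng/ml BDNF and no EGF listed. These days follow the sample titles. The paper's text also describes 3 days in each of D1 and B, T3 as a further 10 days after T2, and 3 replicas at T2. Medium, days in culture and differentiation changed together, so their parts cannot be told apart. The series calls the samples biological replicates, but which cultures or embryos they came from is not given. If they were not separate, the p-values measure only the spread between these samples.

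Cells make cholesterol from acetyl-CoA through the mevalonate pathway, squalene and a chain of sterol intermediates. Sterol regulatory element-binding proteins (SREBPs, encoded by Srebf1 and Srebf2) turn on the genes of this pathway when membrane sterol is low, and Insig1 holds them back in the endoplasmic reticulum when sterol is high. SREBPs also turn on genes for the synthesis and desaturation of fatty acids, and dividing neural progenitors need both lipids for new membrane.

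Sequence upstream of the genes was inspected first. The RefSeq promoter table (GRCm38.p6, 250 bases before to 50 after each start) held 23 of the 30 genes, and 7 had no entry (Fdps, Fdft1, Sqle, Scd1, Scd2, Fads1 and Stard4). On both strands, the letters CCAAT, recognised by NF-Y, a known partner of the SREBPs, occurred in 18 of the 23 genes (78.3%) and in 41.1% of all 27025 genes of the table. GGGCGG, recognised by Sp1, was also found in 18 of the 23 (78.3%), against 38.2% of all genes. The sterol regulatory element core TCACNCCAC occurred in 1 of the 23 (4.35%, all genes 1.44%), and the E-box form TCACGTGA in 0 of the 23 (all genes 1.12%). Each motif was counted on its own, also where it lay next to another one. These shares are descriptions of short windows and show no binding.

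Windows of 30 bases are shown for the single match to the sterol regulatory element core and for the CCAAT match nearest the start in 4 genes that fell at both T1 and T2. Fads2, the gene that rose, had no CCAAT in its window, and its GGGCGG match is shown. Elovl6, which fell at T2, had no CCAAT either. Srebf1, Insig1, Pmvk, Sc5d, Acly, Fasn and Elovl5 had it and were not called lower at T1 or T2. The windows are written along the gene's strand with the match in capitals, where ATTGG is CCAAT on the other strand. Hmgcs1 is on chr13:119690204-119690233 (plus strand), Idi1 on chr13:8885580-8885609 (plus), Nsdhl on chrX:72918517-72918546 (plus), Dhcr7 on chr7:143830153-143830182 (plus), Acsl3 on chr1:78657798-78657827 (plus) and Fads2 on chr19:10101672-10101701 (minus).
Hmgcs1: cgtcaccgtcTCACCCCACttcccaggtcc
Idi1: gtccaaggtgccATTGGctggcgaccgaca
Nsdhl: ctgtgagcgtcaATTGGttgcgccagagcc
Dhcr7: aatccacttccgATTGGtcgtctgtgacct
Acsl3: accgcccgcgggCCAATgggcggcggtctc
Fads2: cgggcctagggtGGGCGGaggaaggggacc
The first base of the match lay at position -137 from the start in Hmgcs1, -14 in Idi1, 9 in Nsdhl, -49 in Dhcr7, -15 in Acsl3 and -186 in Fads2.

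Library totals over genes ran from 8910724 to 16631614 counts, of which the 29 genes took 0.647% to 0.953%. Levels below are CPM, that is counts scaled to a common library size with TMM factors over all 12 libraries, and FPKM, the authors' value per length, is used where genes are compared with each other. T0 replicate 3 stood apart: chi-square per gene was 101 and 105 against the other T0 libraries, which differed from each other by 3.28. Counts of genes called against T0, and the main values, are therefore given with and without it. Fits without it keep 2 T0 libraries, by this measure the closest pair within any group, and their SEs and adjusted p rest on that closeness. Summed neuronal markers rose from between 893 and 966 CPM at T0 to between 1697 and 2726 CPM over T1, T2 and T3, both ends at T3. In this sum, Mtap2 alone was at 879 to 921 CPM at T0 and 1309 to 2169 CPM later. Tubb3, Dcx and Gad1 were also higher in all later than in all T0 libraries. Rbfox3, Snap25 and Syt1 stayed at or below 3.09 CPM, and Stmn2 at 3 counts or fewer. Summed astrocyte markers were at 2590 to 4538 CPM and summed oligodendrocyte lineage markers at 3543 to 6286 CPM over all libraries. In the latter sum, Olig1 alone was at 2199 to 4250 CPM. Sox10, Cspg4, Mbp and Mog stayed at or below 3.38 CPM, and Mag at 3 counts or fewer. The 6 microglial markers were also at 3 counts or fewer. Since these are bulk samples, fewer cells that express a gene and less RNA of it per cell cannot be told apart.

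Levels per length spanned a wide range. Scd2, the main stearoyl-CoA desaturase of brain, was the highest, at 443 ± 46.9 FPKM (SD, n = 3) at T0 and 259 ± 35.1 FPKM (SD, n = 2) at T3. It was followed, by the mean of the 4 group means, by Fads2 (192 FPKM), a fatty acid desaturase that makes polyunsaturated chains, Acly (124 FPKM), which supplies cytosolic acetyl-CoA, Fasn (121 FPKM), the fatty acid synthase, and Sqle (92.7 FPKM), which oxidises squalene. At T0, Fads2 and Acly, Acly and Fasn, and Fasn and Sqle did not differ beyond their spread. The lowest were Fdft1 (squalene synthase, 5.97 FPKM), Abca1 (a sterol exporter, 4.77 FPKM) and Idi1 (isopentenyl diphosphate isomerase, 0.859 FPKM).

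Some of these levels rest on part of the transcript. For the longest coding transcript of each gene (GENCODE vM1, NCBIM37), the share of 50-base windows with an exact copy elsewhere on the genome was 84.6% for Idi1, 65.3% for Acaca, 63.2% for Fdps, 37.3% for Acat2, 32.5% for Insig1 and 22.2% for Fdft1. It was at most 7.81% for the other 23 genes with a transcript there. Reads that aligned to several places were listed apart from the gene counts, so the levels of these 6 genes are uncertain. Idi1 had 8 to 188 counts per library.

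**Figure D1:**
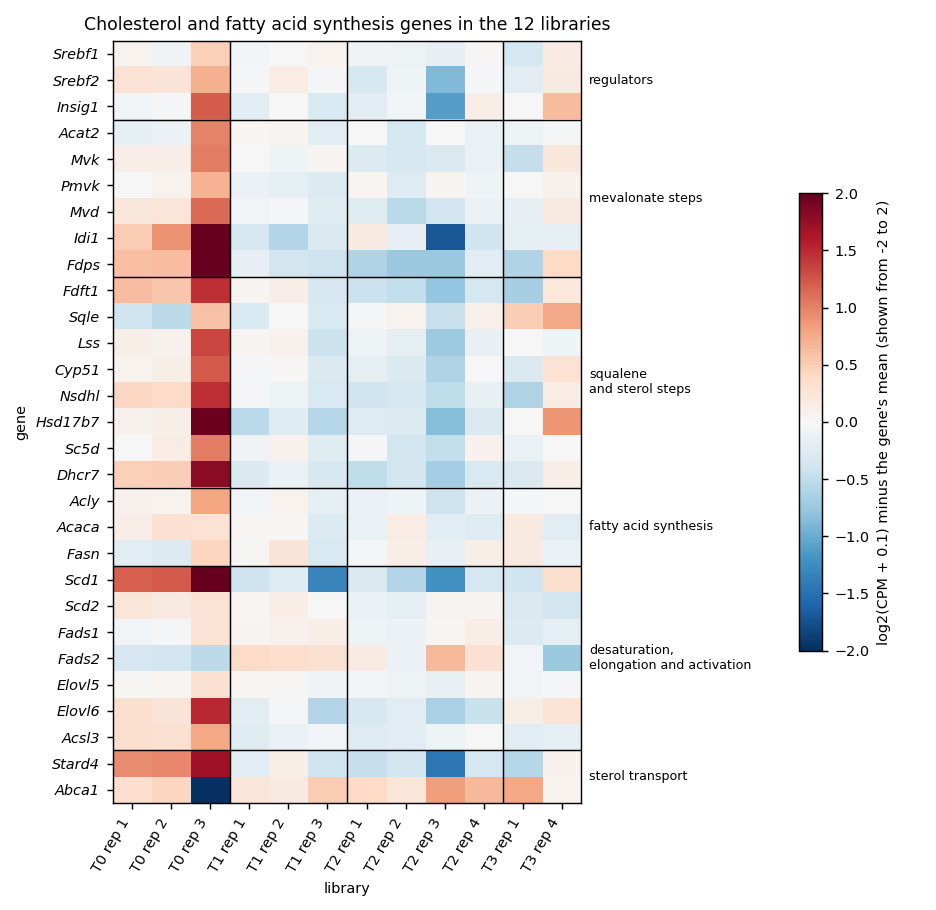
Level of the 29 genes with counts in the 12 libraries, as log2(CPM + 0.1) minus the mean of each gene over the libraries. Rows are genes grouped by role, columns are libraries grouped by time point, and the colour scale ends at -2 and 2. T0 replicate 3 is the reddest column, and Abca1 is its only deep blue entry.

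The T0 libraries differed among themselves for this set. T0 replicate 3 was above both other T0 libraries in 26 of the 29 genes, and the share of all genes for this is not given. It exceeded the mean of replicates 1 and 2 by over 1.5-fold in 20 of 29, against 15.4% of 12362 genes, and the median ratio was 1.85 (1.00 over all genes). Replicates 1 and 2 were close, with ratios from 0.910 to 1.32 and a median of 1.01.

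The ratio was highest for Hsd17b7, a sterol ketoreductase (3.65), Fdps, farnesyl diphosphate synthase (3.16), Idi1 (3.05), Dhcr7, the last reductase of the sterol chain (2.51), and Insig1 (2.36). It was near 1 for Scd2 (1.05), Acaca, acetyl-CoA carboxylase (1.05), and Fads2 (0.894). The sole gene under 1/1.5 was Abca1, where 22.8% of all genes were under it. Its level was 68.2 and 72.5 CPM in replicates 1 and 2 and 2.05 CPM in replicate 3, a ratio of 0.0291.

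Other gene groups moved in that library as well. Of 18 tested genes on a list of other sterol synthesis and SREBP pathway genes, 8 were over 1.5-fold higher and 0 lower. Of 18 on a list of sterol efflux, storage and oxysterol genes, 3 were higher and 8 lower. Cell type markers also differed: 7 of 8 astrocyte and 5 of 7 oligodendrocyte lineage markers with counts were lower by over 1.5-fold, while the summed progenitor markers were the highest of all libraries (8312 CPM). The part of these differences in the results was not tested.

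**Figure D2:**
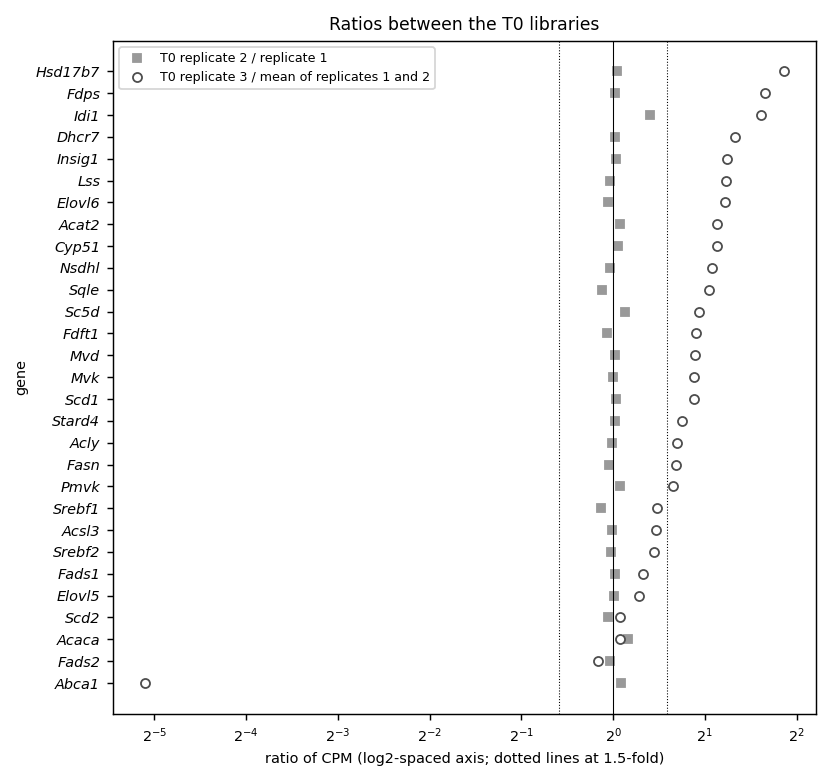
Ratios of CPM between the T0 libraries for the 29 genes, on an axis spaced in log2. Circles are replicate 3 over the mean of replicates 1 and 2, squares are replicate 2 over replicate 1, and dotted lines mark 1.5-fold. The squares stay between 0.910 and 1.32, whereas 20 circles lie right of the upper line and Abca1 lies far left at 0.0291.

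To see how the lipid synthesis genes behaved when proliferation slowed, T1 was compared with T0. Of the 29 genes 8 fell and 1 rose (edgeR's quasi-likelihood test, adjusted p under 0.05), where 16.8% of all 12364 genes tested fell and 15.1% rose. The genes that fell were Idi1 and Fdps of the mevalonate steps, Fdft1, Nsdhl (a sterol decarboxylating dehydrogenase) and Dhcr7 of the sterol steps, Scd1 and Acsl3 (which activates long-chain fatty acids) and the sterol carrier Stard4. Fads2 was the gene that rose. The log2 fold change was below 0 in 26 of 29 with a median of -0.54, whereas the median of all genes was -0.0082. All T1 libraries were below all T0 libraries in 19 of 29 (28% of all genes), and Fads2 had them all above (28.6%).

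Without T0 replicate 3, 12 genes fell and 1 rose, against 24.9% and 25.2% of all genes, and the median moved to -0.19. The same 8 were among the 12, joined by Srebf2, Mvd (mevalonate diphosphate decarboxylase), Hsd17b7 and Elovl6 (an elongase of saturated chains). Leaving out T1 replicate 1, 2 or 3 left 2 genes that fell each time. For each of the 8 the change and its SE were smaller without T0 replicate 3. Fits without a T1 library or without T0 replicate 3 have fewer samples.

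Scd1, a stearoyl-CoA desaturase, fell the most. It was at 166, 170 and 309 CPM at T0, 54.2, 60.2 and 29.0 CPM at T1, 59.0, 48.2, 31.3 and 56.6 CPM at T2, and 55.2 and 90.1 CPM at T3. All T0 libraries were above every later library. The log2 fold change at T1 was -2.18 ± 0.36 (SE, adjusted p = 0.0054 by edgeR), a level 4.52-fold lower, and -1.82 without T0 replicate 3.

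Stard4 was at 75.5, 76.4 and 128 CPM at T0, 33.5, 42.9 and 29.9 CPM at T1, 28.6, 30.4, 14.47 and 31.3 CPM at T2, and 26.4 and 41.9 CPM at T3. Here too all T0 libraries were above all others. The log2 fold change was -1.40 ± 0.25 at T1 (SE, adjusted p = 0.0077 by edgeR) and -1.10 without T0 replicate 3. Scd1, Stard4 and Fads2 passed the threshold at T1 under every one of the 14 settings run.

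Idi1 was at 3.75, 4.95 and 13.3 CPM at T0, 2.07, 1.72 and 2.13 CPM at T1, 2.96, 2.31, 0.728 and 1.97 CPM at T2, and 2.26 CPM in both T3 libraries. The T0 libraries were above all others, with T0 replicate 3 far above the rest. The log2 fold change at T1 was -1.89 ± 0.51 (SE, adjusted p = 0.030 by edgeR) and -1.14 without that library. Fdps gave a similar picture, with 30.8, 31.1 and 97.7 CPM at T0, 18.1, 15.7 and 15.2 CPM at T1, 13.4, 12.1, 12.1 and 17.4 CPM at T2, and 13.4 and 26.8 CPM at T3. It fell by 1.71 on the log2 scale at T1 (SE 0.47, adjusted p = 0.032 by edgeR), and the log2 fold change was -0.93 without T0 replicate 3.

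Dhcr7 was at 83.4, 84.4 and 211 CPM at T0, 49.2, 55.1 and 48.0 CPM at T1, 42.2, 46.4, 37.3 and 48.4 CPM at T2, and 49.4 and 66.2 CPM at T3. The T0 libraries were again above the rest. At T1 the change was -1.32 ± 0.37 on the log2 scale (SE, adjusted p = 0.034 by edgeR) and -0.73 without T0 replicate 3. The falls of Nsdhl (-1.004), Fdft1 (-0.99) and Acsl3 (-0.63) were smaller, and became -0.55, -0.63 and -0.45 without that library.

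Fads2, by contrast, was at 311, 303 and 274 CPM at T0, 514, 500 and 488 CPM at T1, 441, 362, 619 and 484 CPM at T2, and 380 and 236 CPM at T3. All T1 and T2 libraries were above all T0 libraries, whereas the T3 libraries lay on both sides of them. Fads2 rose by 0.75 ± 0.11 on the log2 scale at T1 (SE, adjusted p = 0.0034 by edgeR), and 0.70 without T0 replicate 3. Its neighbour in the pathway, the desaturase Fads1, had a log2 fold change of 0.01 at T1, with 333, 338 and 421 CPM at T0 and 359, 368 and 376 CPM at T1, and did not pass the test.

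**Figure D3:**
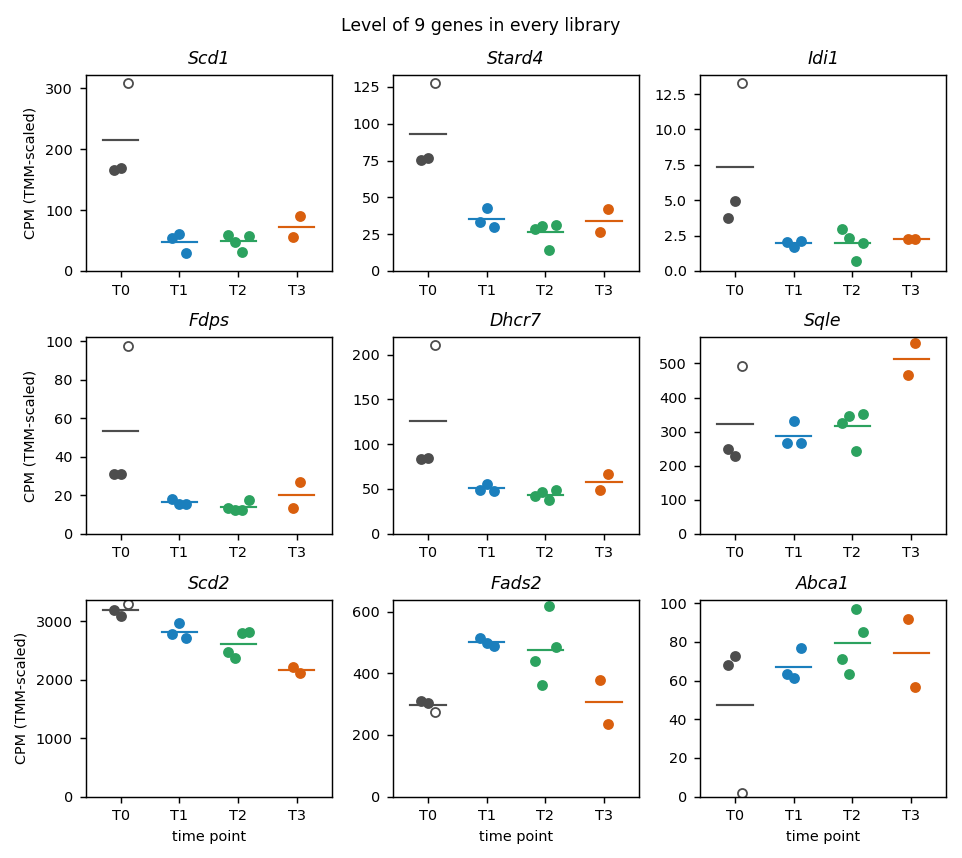
CPM of 9 genes in every library by time point, with the group mean as a line and T0 replicate 3 as an open circle. Each axis starts at 0. Scd1, Stard4, Idi1, Fdps and Dhcr7 are higher in all T0 than in all later libraries, Sqle is highest at T3 (466 and 560 CPM), Scd2 is lowest at T3, Fads2 is higher in all T1 and T2 than in all T0 libraries, and Abca1 is at 2.05 CPM in T0 replicate 3 alone.

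At the beginning of differentiation in medium B (T2 against T0), 15 of the 29 genes fell and 1 rose, against 21.8% and 21.4% of 12607 genes tested. The median log2 fold change was -0.71 (0.0023 over all genes), and 17 of 29 had all T2 libraries below all T0 libraries (27.2% of all genes). Fads2 alone had all T2 libraries above all T0 libraries (27% of all genes). By role, 1 of 3 regulators, 4 of 6 mevalonate genes with counts, 6 of 8 squalene and sterol genes, 0 of 3 fatty acid synthesis genes, 3 of 7 of desaturation, elongation and activation, and Stard4 of the transport genes fell. T1, T2 and T3 were set against the same T0 libraries, so the comparisons are not independent.

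In addition to the 8 genes that fell at T1, those that fell at T2 were Srebf2, Mvk (mevalonate kinase), Mvd, Lss (lanosterol synthase), Cyp51 (lanosterol demethylase), Hsd17b7 and Elovl6. Without T0 replicate 3 the count was 13 lower and 3 higher (25.3% and 26.7% of all genes). Lss (adjusted p = 0.076) and Cyp51 (adjusted p = 0.064) then missed the threshold, while Sqle (log2 fold change 0.42) and Fasn (0.29) were past it as higher. The median was then -0.34.

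The largest log2 fold changes were those of Scd1 (-2.12 ± 0.28, SE, adjusted p = 0.00068 by edgeR), Fdps (-1.93 ± 0.41, SE) and Idi1 (-1.86 ± 0.53, SE). They were -1.76, -1.14 and -1.12 without T0 replicate 3. Stard4 (-1.82), Dhcr7 (-1.52) and Fdft1 (-1.44) followed, at -1.51, -0.93 and -1.07 without it. Fads2 was higher by 0.70 ± 0.18 (SE, adjusted p = 0.014 by edgeR), and by 0.65 without T0 replicate 3. Fasn, at 787, 764 and 1247 CPM at T0 and 897, 1012, 834 and 999 CPM at T2, had a log2 fold change of 0.02, and its groups overlapped.

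Among the regulators, Srebf2, which encodes the SREBP most tied to cholesterol synthesis, was at 445, 439 and 603 CPM at T0, 361, 404 and 357 CPM at T1, 294, 344, 200 and 358 CPM at T2, and 314 and 417 CPM at T3. All later libraries were below all T0 libraries. It fell by 0.71 on the log2 scale at T2 (SE 0.21, adjusted p = 0.026 by edgeR), and at T1 its change of -0.41 missed the threshold (adjusted p = 0.091). The changes without T0 replicate 3 were -0.55 at T2 and -0.24 at T1, both past the threshold.

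Srebf1, which encodes the SREBP forms tied more to fatty acid synthesis, was at 92.4, 84.1 and 123 CPM at T0, 84.6, 87.3 and 92.4 CPM at T1, 83.8, 82.0, 78.5 and 89.0 CPM at T2, and 69.1 and 98.7 CPM at T3. The groups overlapped, and its log2 fold changes of -0.18 at T1 and -0.24 at T2 did not pass the test. Insig1 was at 73.7, 75.3 and 176 CPM at T0, 65.7, 77.1 and 61.6 CPM at T1, 65.4, 73.4, 35.6 and 83.8 CPM at T2, and 75.6 and 119 CPM at T3. Without T0 replicate 3 its log2 fold changes were -0.13 at T1 and -0.19 at T2, and it did not pass the test with or without that library.

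Abca1 was at 63.6, 61.1 and 76.9 CPM at T1, 71.3, 63.6, 96.9 and 85.1 CPM at T2, and 92.0 and 56.7 CPM at T3. These levels overlapped T0 replicates 1 and 2 (68.2 and 72.5 CPM). Its log2 fold changes of 0.50 at T1 and 0.75 at T2, neither past the threshold, became -0.07 and 0.19 without T0 replicate 3, so that this library decided the values.

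**Figure D4:**
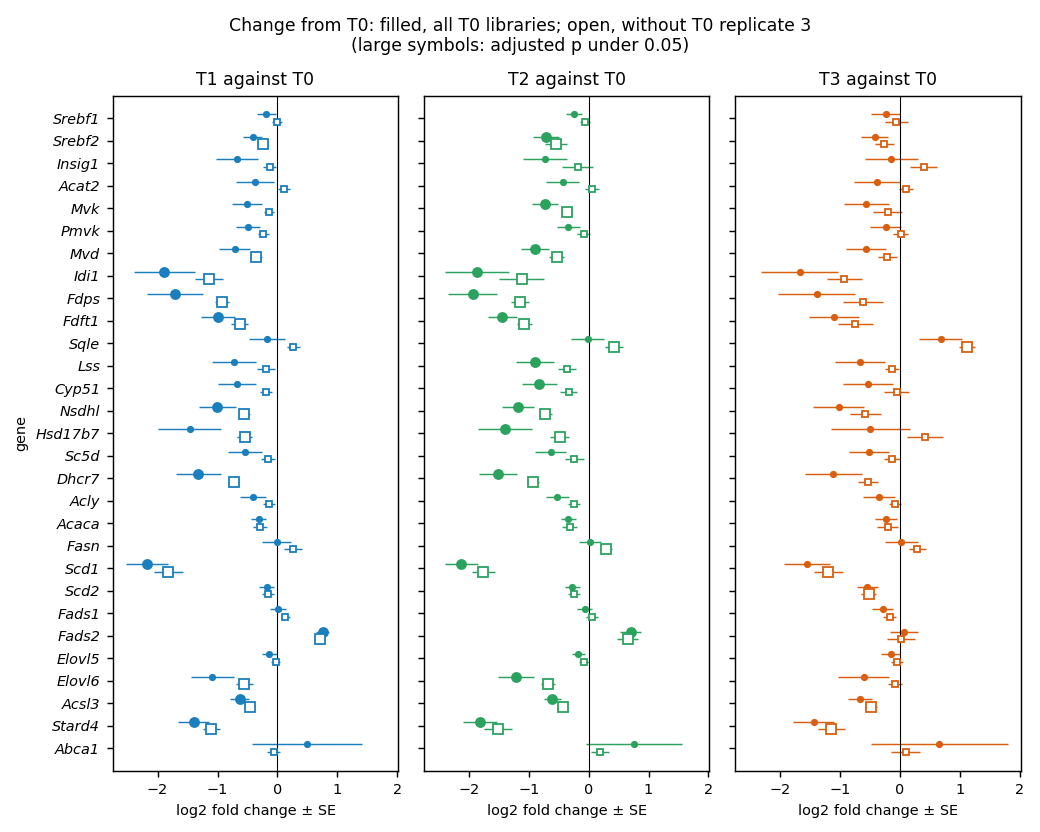
Log2 fold change ± SE of the 29 genes against T0 at T1, T2 and T3, with all T0 libraries (filled circles) and without T0 replicate 3 (open squares). Large symbols have an adjusted p under 0.05 by edgeR. Most open squares lie closer to 0 than the filled circles and have shorter bars, while Scd1 and Stard4 stay below -1 at each time point.

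At overt differentiation (T3 against T0), 0 of the 29 genes passed the threshold by edgeR in either direction, with 6 at an unadjusted p under 0.05. Across all 12721 genes, 1.41% fell and 3.31% rose. DESeq2 called 3 of the 29 lower and 0 higher, and its share of all genes is not given here. Without T0 replicate 3, 4 genes fell, namely Scd1, Scd2, Acsl3 and Stard4, and Sqle rose (8.49% and 9.94% of all genes). The direction was below 0 in 25 of 29 with all libraries and in 21 of 29 without that one, with medians of -0.51 and -0.13. In 16 of 29, both T3 libraries were below all T0 libraries (25.8% of all genes), and in 0 above them all (24.3%).

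The lowest values at T3 were those of Idi1 (log2 fold change -1.67 ± 0.64, SE), Scd1 (-1.55 ± 0.38, SE, adjusted p = 0.074 by edgeR) and Stard4 (-1.43 ± 0.34, SE, adjusted p = 0.069). Without T0 replicate 3 they were -0.93, -1.19 and -1.14. Scd2 was at 3192, 3080 and 3300 CPM at T0, 2786, 2968 and 2712 CPM at T1, 2471, 2377, 2801 and 2817 CPM at T2, and 2219 and 2112 CPM at T3. All later libraries were below those of T0, yet the changes of -0.18, -0.27 and -0.54 on the log2 scale did not pass the test with all libraries. They were -0.15, -0.24 and -0.52 without T0 replicate 3.

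Sqle went the other way. It was at 249, 229 and 493 CPM at T0, 266, 331 and 266 CPM at T1, 325, 347, 242 and 352 CPM at T2, and 466 and 560 CPM at T3. Both T3 libraries were above T0 replicates 1 and 2 and overlapped replicate 3. Its change of 0.68 ± 0.36 on the log2 scale (SE, adjusted p = 0.29 by edgeR) became 1.12 (adjusted p = 0.014) without T0 replicate 3. The fits at T3 without that library set 2 libraries against 2, so their calls are weakly based.

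Consecutive time points were then compared. From T1 to T2, edgeR called 0 of the 29 genes in either direction (0.0565% of 12382 genes fell and 0.573% rose), DESeq2 also called 0, and 2 were at an unadjusted p under 0.05. The largest falls were in Fdft1 (-0.46 ± 0.15, SE), Stard4 (-0.42) and Srebf2 (-0.31), and the largest rises in Abca1 (0.25), Sqle (0.15) and Pmvk, phosphomevalonate kinase (0.14), none past the threshold. Fdft1 was at 22.2, 23.6 and 17.0 CPM at T1 and 15.9, 15.2, 12.5 and 16.8 CPM at T2. Pmvk was at 32.2, 30.3 and 28.8 CPM at T1 and 35.6, 29.0, 36.1 and 32.7 CPM at T2, so that its groups overlapped while those of Fdft1 did not. All T2 libraries were below all T1 libraries in 2 of 29 genes, Fdft1 and Mvk (5.85% of all genes), and above them in 0 (6.4%).

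From T2 to T3 edgeR again called 0 in either direction (0.691% of 12599 genes fell and 0.5% rose), with 5 at an unadjusted p under 0.05. DESeq2 called 3 higher, and its share of all genes is again not given. The log2 fold change was above 0 in 24 of 29, with a median of 0.16 (0.0066 over all genes). The largest were Hsd17b7 (0.90 ± 0.26, SE, adjusted p = 0.12 by edgeR), Sqle (0.70 ± 0.16, SE, adjusted p = 0.076) and Elovl6 (0.60 ± 0.13, SE, adjusted p = 0.068), which were also the 3 genes past the threshold with DESeq2. Fits that leave 1 T3 library have no spread at T3, and their counts are not given.

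Hsd17b7 was at 22.9, 22.7, 15.1 and 22.4 CPM at T2 and 27.4 and 50.6 CPM at T3. Elovl6 was at 65.3, 70.4, 52.1 and 60.5 CPM at T2 and 88.6 and 99.3 CPM at T3. For both genes, and for Sqle, the T3 libraries were above all T2 libraries. The same held for 6 of 29 genes in all (13.6% of all genes), and 2 had both T3 libraries below (12.1%). The largest falls were those of Fads2 (-0.64 ± 0.24, SE), Scd2 (-0.28) and Fads1 (-0.23), none past the threshold. Fads1 was at 325, 318, 355 and 380 CPM at T2 and 287 and 304 CPM at T3.

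Single libraries leaned one way over much of the set within later groups too. T1 replicate 3 was the lowest of its group in 23 of 29 genes (39.5% of all genes), and T2 replicate 3 in 19 of 29 (28.8% of all genes), for instance in Insig1 (35.6 CPM, the others 65.4 to 83.8 CPM) and Srebf2 (200 CPM, the others 294 to 358 CPM). T3 replicate 4 was above T3 replicate 1 in 22 of 29 (49.9% of all genes), with 26.8 against 13.4 CPM for Fdps.

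Other genes of the same pathways were counted for comparison, against all-gene shares of 16.8% lower and 15.1% higher at T1, 21.8% and 21.4% at T2, and 1.41% and 3.31% at T3. Of 18 tested genes on the list of other sterol synthesis and SREBP pathway genes, 7 fell and 1 rose at T1, 10 fell and 1 rose at T2, and 1 fell and 0 rose at T3. These counts without T0 replicate 3 were 10 and 2 at T1, 9 and 2 at T2, and 2 and 0 at T3, against 24.9% and 25.2%, 25.3% and 26.7%, and 8.49% and 9.94% of all genes. At T2 the genes that fell included Tmem97, a sterol-regulated membrane protein (-1.65), Lbr, a sterol C14 reductase of the nuclear envelope (-1.54), and Tm7sf2, another C14 reductase (-1.23), with values of -0.92, -1.18 and -1.24 without T0 replicate 3. Tm7sf2 was also the gene that fell at T3 (-1.20, and -1.22 without that library). The list's median at T2 was -0.52, and -0.44 without T0 replicate 3.

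On the list of 25 other genes of fatty acid synthesis, elongation and desaturation, 4 fell and 6 rose at T1, 4 fell and 7 rose at T2, and 0 fell and 2 rose at T3. When T0 replicate 3 was left out, 5 fell and 9 rose at T1, 4 fell and 9 rose at T2, and 1 fell and 4 rose at T3. The median at T2 was 0.10, and 0.17 without that library. Fads3 was at 0.212 to 0.900 CPM at T0 and 2.59 to 3.73 CPM at T2, a log2 fold change of 2.54, or 2.15 without T0 replicate 3. It passed the filter on low values mainly through T2, so its call as higher is not independent of the filter. Acsl6, which activates long-chain fatty acids, was at 19.0 to 22.8 CPM and 60.6 to 72.5 CPM, a change of 1.71, or 1.67 without it.

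Of 19 sterol efflux, storage and oxysterol genes tested at T2, 2 fell and 6 rose, and without T0 replicate 3, 4 fell and 6 rose. Of 18 tested at T1 and at T3, 3 fell and 3 rose at T1 and 0 changed at T3 by edgeR, and without that library 6 fell and 5 rose at T1 and 4 fell and 2 rose at T3. The 6 that rose at T2 include Abcg1, a sterol exporter with 0 counts at T0 and 0.819 to 1.41 CPM at T2. It passed the filter on low values only through T2, so it could not have been called lower, and its call is no result. Lrp1, a lipoprotein receptor, rose by 1.77, and by 1.29 without T0 replicate 3. Cyp46a1, the neuronal cholesterol 24-hydroxylase, was at 0.846 to 1.35 CPM at T0 and 3.54 to 5.47 CPM at T2 and rose by 2.01, or 1.86 without it. Scarb1, another lipoprotein receptor, fell (-1.67, and -1.31 without it). Of 20 fatty acid oxidation genes, 6 fell and 1 rose at T2, and 10 fell and 1 rose without T0 replicate 3. The median of this list at T2 was -0.21, and -0.30 without that library. At T1, 3 fell and 0 rose, or 11 and 2 without it, and at T3, 1 fell and 0 rose, or 5 and 0. The long-chain dehydrogenase Acadl was among those that fell at T2 in both (-0.86 and -0.93).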

How the data were processed

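RNAseq of 12 libraries (poly(A) RNA, TruSeq v2, Illumina HiScanSQ) was used. Per the labels and the study's methods, the authors aligned reads to mm9 with TopHat (2.0.6 in the submitters' processing notes, which also name Bowtie 0.12.7.0 and HTSeq 0.6.0). They deposited raw counts per gene and a table of FPKM. The strand setting, read length and the tool behind the FPKM values are not given in the sources used here. Overlapping genes on opposite strands, such as Srebf1 and Rai1 or Fdft1 and Ctsb, may therefore share reads. Of 5 further entries that name no gene, no-feature reads were 13.3% to 24.1% of uniquely aligned reads. The lowest was T0 replicate 3, and the next lowest was T1 replicate 3 (17.6%). Reads aligned to several places were 26.0% to 39.0% of all entries, with the highest share in T0 replicate 3. That library also had the lowest TMM factor (0.932). The part of this in its differences was not tested.

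Counts were tested with edgeR 4.0.16 (R 4.3.3; TMM, filterByExpr, quasi-likelihood test) on the libraries of each pair of groups, with Benjamini-Hochberg adjustment over all genes tested and a threshold of 0.05. The SE of a log2 fold change was its size over the square root of F. Alternatives were DESeq2 1.42.0, limma 3.58.1 on log2(FPKM + 1), other scalings, filters and fits, and fits without each library. The scripts were checked on simulated counts. T1 and T2 libraries with the same number deviated together (r = 0.245, 0.376 and 0.188 across genes). T1 replicate 3 correlated more with T2 replicate 4 (r = 0.416), so the numbers need not mark pairs. The replicate block changed no call between T1 and T2.

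Genes given in full are the 3 largest falls and rises of each comparison and the 3 regulators. Genes outside the set are named by size of change among those past the threshold, and some are not reported here. The genes, lists and motifs were chosen with earlier results of these data known. Replicates are numbered as in the labels. Hmgcs1 stood on an unplaced sequence of chromosome 13 in the FPKM table.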

Additional observations from a re-analysis of the deposited data

Results flagged for a closer look

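Of the 29 genes with counts, 3 had 1 library of T2 far from the other 3, by the gap to the nearest library over the range of the group (above Dixon's critical value for 4 samples). In each it was T2 replicate 3, the lowest. Lss was at 30.03 CPM there and at 43.6 to 46.3 CPM in the others (ratio 0.832). Hsd17b7 was at 15.1 CPM against 22.4 to 22.9 CPM (ratio 0.935), and Stard4 at 14.47 CPM against 28.6 to 31.3 CPM (ratio 0.836). Chance gives such a gap in about 1 of 20 groups, and genes of 1 library are not independent. Groups of 2 or 3 libraries were not examined this way, so that T0 replicate 3 is not among these.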

How the results depend on the processing

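Counts of genes called differed between settings. Shares of all genes under most of these settings are not given, so whether all genes shifted alike is not shown. At T1, 8 genes fell, 2 with limma on log2(FPKM + 1), 4 with the replicate block and 2 to 12 when 1 library was left out. At T2, 15 fell, 7 with limma, 7 with the replicate block and 10 to 17 with 1 library left out. The single rise became 3 at T1 and 3 at T2 with libraries numbered 1 and 2 alone. At T2 it became 0 with limma, 0 with the block, and 1 to 3 with 1 library left out. At T3 against T0, 0 fell, but 3 did with DESeq2, 2 with no filter and 9 in 1 fit of all 12 libraries. With 1 T0 library left out, 0 to 4 fell and 0 to 1 rose there. At T3 against T2, 3 rose with DESeq2, 3 with no filter, and 0 to 6 rose and 0 to 1 fell with 1 library left out. The cause was not tested. Whether same-numbered T0 and later libraries share an origin is not given. Deviations of same-numbered T0 and T1 or T2 libraries correlated from -0.171 to 0.138 across genes. Not every one of these libraries correlated best with its own number. The block left 0 calls at T3 against T2. By the labels T3 shares 1 number with T0, too few for a block, although the FPKM heading of T3 replicate 4 holds a further number.

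Small changes turned sign. Sqle at T2 turned from -0.02 to 0.42 without T0 replicate 3 and was then past the threshold, and the turned values below were not. With limma on log2(FPKM + 1), Fads1 was -0.000427 at T1, Fads2 -0.19 at T3 and Abca1 -0.0807 between T1 and T2. With libraries numbered 1 and 2 alone, Abca1 was -0.17 at T1 and -0.0483 at T2, and with no filter Fasn was -0.0113 at T2. With 1 library left out, log2 fold changes ran from -0.0521 to 0.13 for Fads1 and -0.0656 to 0.93 for Abca1 at T1, from -0.11 to 0.29 for Fasn at T2, and at T3 from -0.30 to 0.36 for Fads2, -0.53 to 0.00905 for Srebf1 and -0.51 to 0.40 for Insig1. With 2 T3 libraries, changes there were resolved least.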
